A study of Homo sapiens with 24 samples.

Results

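The step from the middle to the late phase of a scratch wound was followed in the lung cancer line H838 (human, non-small cell type) by setting 4 late arrays (10 and 15 h after scratching) against 6 middle arrays (3, 4 and 5 h). These 10 of the series' 24 arrays were chosen by the time and treatment in their labels. At each of the 5 times there was 1 array of H838 cells that shared a transwell system with HPAEC (endothelial cells of the human pulmonary artery, used as primary cells) and 1 array of H838 cells that shared it with more H838 cells. In both phases the lysed cells were confluent H838 monolayers scratched several times, kept in endothelial growth medium that contains EGF, bFGF, IGF, VEGF and hydrocortisone. The 4 arrays of unscratched cells at 0 h, a pair for each co-culture, gave the starting level. The 0.5, 1 and 2 h arrays and the 4 arrays at 24 h entered the fit as further times.

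After wounding, epithelial cells switch on immediate early genes within minutes, and the products of those genes and their feedback inhibitors shape a second wave over the next hours. Cells at the wound edge then spread, migrate and, in many lines, go back into the cell cycle. Other regulators that act over hours are hypoxia-inducible factor, which follows oxygen, the SREBP proteins, which follow sterol, and the circadian clock. No unscratched array after 0 h was analysed here, so scratching, time in culture and handling of the medium cannot be told apart in any value below. The labels do not say whether arrays came from separate cultures, so p-values measure only the spread between these arrays.

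Each array held 47286 probes, of which 15518 to 17306 were above background (detection p under 0.01) on the 10 arrays. Pairs of these arrays correlated at 0.986 to 0.994 across genes. On the first principal component, which held 25.1% of the variance of the 10 arrays, late arrays lay between 5.7 and 19.6 and middle arrays between -14.1 and 1.5, with the H838 5 h array nearest to the late ones and the H838 15 h array farthest out. All 5 HPAEC arrays lay on 1 BeadChip and all 5 H838 arrays on the other, so co-culture and chip cannot be told apart here, but the step was measured within each. The label H838 was borne out in part. The lung and epithelial genes EPCAM, NKX2-1 and MUC1 were above background on all 10 arrays, and KRT8, KRT19, KRT7, CDH1, SFTPB and SCGB1A1 on none. Of 22 endothelial markers, 15 were above background on none of the 10 arrays, VWF, CDH5 and KDR among them, and SOX18, SOX7 and MMRN1 were on all 10. Of 14 fibroblast and smooth muscle genes, 9 were on all 10, collagens and ACTA2 among them, and their summed raw intensity was 31510 to 41780 on late arrays and 28850 to 32470 on middle arrays. Their part in the results below was not tested, and fewer cells of a type cannot be told apart from less RNA per cell. At 0 h and at 24 h, 1 array carries HPAEC in its title but H838 as second line in another label, and both were used by title.

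Of 11494 genes tested, 704 (6.12%) differed between late and middle arrays at an adjusted p under 0.05 in limma. Of these, 418 (3.64% of all genes) were higher late and 286 (2.49%) were lower, while the median step over all genes was 0.01 on the log2 scale and the median SE 0.09. At an unadjusted p under 0.05 there were 2369. The fit took the spread from differences between the co-cultures' time courses and between the replicate arrays at 0 h and 24 h. When differences between times of 1 phase counted as spread, the number was 200 over the 10 arrays alone and 468 over 24 arrays. With an intensity trend and a robust fit, an alternative added after seeing the data, the 10 arrays alone gave 629, of which 495 were among the 704. Leaving out 1 array gave 255 to 590 genes, and 255 without H838 15 h, 271 without HPAEC 10 h, 364 without HPAEC 15 h, 413 without HPAEC 5 h, 461 without H838 4 h, 461 without H838 10 h and 463 without H838 3 h, and 227 without the H838 5 h and 15 h arrays together. The split between rises and falls rested on the normalization. With arrays scaled to a common median in place of quantile normalization, the median of all genes itself moved to 0.14, and 628 of 679 called genes were higher (92.5%, against 59.4%), with 51 lower.

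Set against 0 h, the middle arrays had 918 genes higher (7.99%) and 837 lower (7.28%), and the late arrays 864 higher (7.52%) and 777 lower (6.76%). The 3 comparisons share arrays, so their calls were combined only to sort genes by course. The step and the middle change use the same middle arrays with opposite signs. Opposite directions are therefore in part built in, and the counts of courses are descriptions. A middle change with a called step in the opposite direction, here named reverted, was found for 262 genes (2.28%), of which 126 had been higher and 136 lower in the middle phase. Of the 262, 232 had no called late change from 0 h, which does not show a full return. A late change was called for 24 in the direction of the middle change and for 6 in the other direction. The middle change persisted, with no called step and a late change of the same sign, for 734 genes (6.39%), 381 of them higher and 353 lower. A further 36 (0.313%) were built up, with a step in the direction of the middle change, and 230 (2.00%) began late, with no called middle change, a called step and a late change of the same sign. The other 176 genes with a step were called in neither the middle nor the late change. For 723 genes with a middle change, neither the step nor the late change passed, so their course was not resolved.

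**Figure D1:**
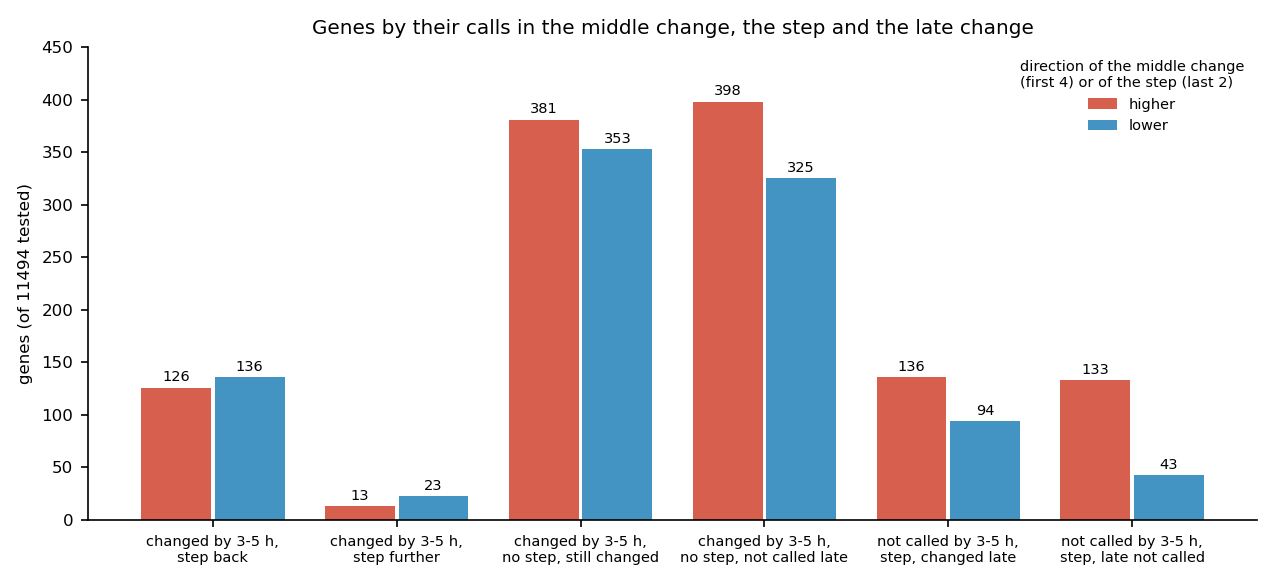
Number of genes (vertical axis, of 11494 tested) in each combination of calls for the middle change, the step and the late change, with red bars for higher and blue bars for lower in the middle change, or in the step for the courses with no called middle change. Reverted genes (126 and 136) were fewer than persisted ones (381 and 353), and 136 and 94 genes began late.

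The genes of the hypoxia-inducible factor program held the largest rise of the step. Hypoxia-inducible factor is a transcription factor that is degraded in the presence of oxygen and that switches on genes of glycolysis, vessel growth and energy saving. Of 30 measured target genes, 8 rose and 3 fell in the step, with a median of 0.11 (0.10 relative to all genes under median scaling, where 11 rose and 1 fell), and in the middle phase 19 of the 30 had been lower than at 0 h and 1 higher. The count of 8 became 4 without H838 15 h and 5 without HPAEC 15 h.

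ANKRD37, an ankyrin-repeat protein gene switched on by this factor, had log2 intensities of 8.19, 8.45, 7.73 and 7.90 in late arrays (HPAEC at 10 and 15 h, H838 at 10 and 15 h), against 5.21, 5.63 and 5.97 as the lowest, median and highest middle array. Every late array lay above every middle array, and late levels lay around the 0 h mean of 7.92. The fitted step was 2.42 ± 0.11 (SE), with an adjusted p of 1.61e-09, and it was 2.52 beside HPAEC and 2.33 beside H838. Only 1 of the 6 middle arrays had this gene above background, so the size of the step depends on how background is treated. It ran from 1.42, from the authors' normalized values, to 2.54 over 28 alternatives. DDIT4, which encodes an inhibitor of the growth kinase complex mTORC1 and also responds to glucocorticoid, had 10.74, 10.59, 10.49 and 10.42 in the same order of late arrays, against 8.78, 9.11 and 9.54 in middle arrays. The groups did not overlap, the step was 1.46 ± 0.14 (adjusted p = 1.27e-05), and the late level was higher than the 0 h mean of 9.86 by 0.70 ± 0.15 (adjusted p = 0.00605). DDIT4 was thus 1 of the 6 genes that had passed their starting level. KDM3A, a histone demethylase, had 8.71, 9.07, 9.01 and 9.13 late and 8.07, 8.17 and 8.51 in the middle arrays. Its step of 0.74 ± 0.07 (adjusted p = 2.19e-05) returned it in part, since it was still -0.40 ± 0.08 from 0 h (adjusted p = 0.00384). HILPDA, a lipid droplet protein, had a step of 0.65 ± 0.09 (adjusted p = 0.000646), and PFKFB3, INSIG2, VEGFA and ZNF395 had steps of 0.31 to 0.51.

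Stretches of the promoters of the first 3 are shown because they rose together. They come from RefSeq (GRCh38.p14), are written 5′ to 3′ on the gene's strand and end before the transcription start. Capitals mark the core of the hypoxia response element, ACGTG or GCGTG on either strand, which overlaps the E-box CACGTG where a C precedes it.
ANKRD37 (chr4:185396654-185396727, plus strand): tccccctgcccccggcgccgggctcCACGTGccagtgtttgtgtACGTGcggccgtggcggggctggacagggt
DDIT4 (chr10:72273846-72273900, plus strand): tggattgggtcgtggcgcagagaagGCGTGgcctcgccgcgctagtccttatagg
KDM3A (chr2:86441320-86441370, plus strand): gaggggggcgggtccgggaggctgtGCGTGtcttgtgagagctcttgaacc
All 5 of the called-higher targets that had a promoter in the table (of 8) held this core within 250 bases before the start, as did 57.7% of the promoters of tested genes and 43.1% of all 27305. Of the 23 measured targets with a promoter, called or not, 20 held it. A match of these letters is a description and does not show binding.

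The 3 targets that fell in the step, named after their values were seen, took different courses. NDRG1 fell by 0.40 on the log2 scale after a called middle change of -0.29 ± 0.09, and ADM fell by 0.35 with no called middle change. ANGPTL4 fell by 0.53 after a called middle change of 0.41 ± 0.08 and so counts among the reverted targets. PFKFB4, which encodes an enzyme that sets the rate of glycolysis, was lower than at 0 h in both phases with no called step, with late levels of 9.71, 10.99, 9.73 and 10.48, middle levels of 9.37, 10.15 and 10.64 and a 0 h mean of 11.35. Its late arrays were split by time, both 10 h values lying below both 15 h values. In all, 8 of the 30 targets persisted at a changed level, 9 reverted and 1 was built up. The 18 measured glycolysis enzymes had no called step, with a median of -0.06 (0.08 under median scaling, which is -0.06 relative to all genes).

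**Figure D2:**
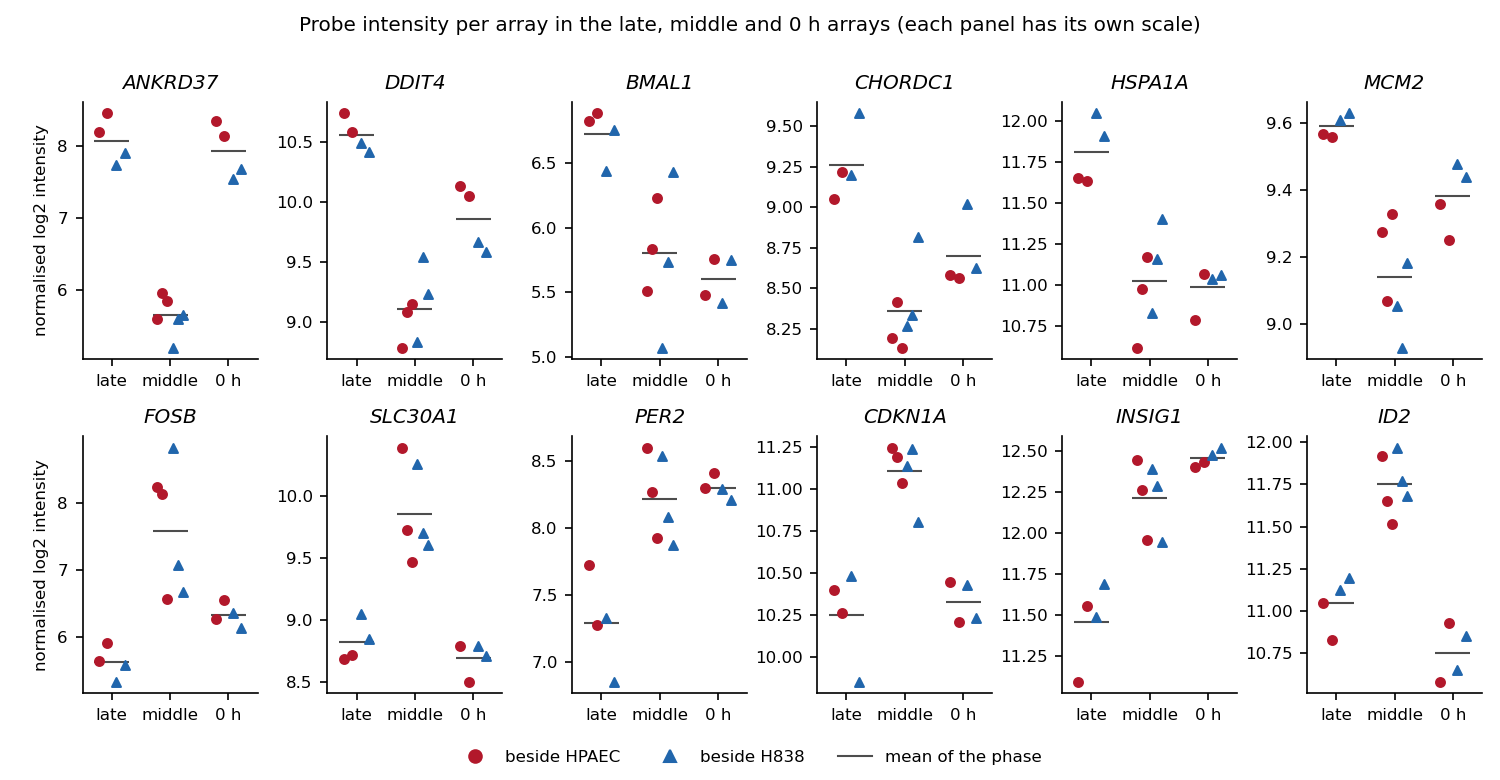
Normalised log2 intensity (vertical axis, own scale in each panel) of 12 genes on the late, middle and 0 h arrays, with circles for cells beside HPAEC, triangles for cells beside H838 and a line at the mean of each phase. The genes were picked from those called in the step. In all panels but BMAL1, whose nearest late and middle arrays are about level, the late arrays lie wholly above or wholly below the middle arrays. Of all 11494 genes, 347 had every late array above every middle array and 257 had every late array below. For ANKRD37, SLC30A1 and CDKN1A the late arrays lie near the 0 h arrays.

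Several of the largest falls were of genes that had been high in the middle phase. The immediate early genes encode transcription factors and phosphatases that growth factors and injury induce without new protein synthesis. Of 30 measured members, 6 fell and none passed for a rise in the step, with a median of -0.16 (-0.14 relative to all genes under median scaling, where 2 fell). The count of 6 became 3 without any 1 of H838 3 h, H838 15 h, HPAEC 3 h, HPAEC 4 h, HPAEC 5 h, HPAEC 10 h and HPAEC 15 h.

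FOSB, a member of the AP-1 transcription factor family, had 5.65, 5.91, 5.33 and 5.59 in late arrays, against 6.56, 7.60 and 8.82 in middle arrays. No late array had it above background and all 6 middle arrays did, so FOSB was at least 3.16-fold lower late, with a fitted step of -1.96 ± 0.17 (adjusted p = 9e-06). FOSL1, another AP-1 member, had 7.03, 6.69, 6.52 and 6.29 late and 6.90, 7.45 and 7.74 in middle arrays. The HPAEC 10 h array lay inside the middle range, and within each co-culture the step was -0.75 beside HPAEC and -0.81 beside H838 (pooled adjusted p = 2.56e-05). IER3, a regulator of cell survival, and KLF10, a TGF-beta-responsive repressor, had steps of -0.60 ± 0.10 and -0.42 ± 0.12 (adjusted p = 0.00187 and 0.042). JUND and PHLDA1 were the other called members. EGR1, also of this group, had no called step and is described with the persisted genes.

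Other signalling genes also fell. NAB2, which encodes a corepressor that binds EGR proteins, had 8.05, 7.96, 8.39 and 7.92 late, against 8.62, 8.97 and 9.54 in the middle arrays. No late array reached the lowest middle array, and the step of -0.95 ± 0.10 (adjusted p = 3.23e-05) brought NAB2 to within 0.12 ± 0.11 of 0 h. ETV5, an ETS transcription factor, had 7.97, 7.74, 7.75 and 8.06 late and 8.62, 8.89 and 9.21 in middle arrays, again with no overlap and a step of -1.01 ± 0.11 (adjusted p = 2.78e-05). RRAD, a small GTPase that restrains calcium channels, had a step of -1.01 ± 0.15 (adjusted p = 0.000646), with its 15 h arrays at 5.41 and 5.21 and its 10 h arrays at 6.45 and 6.24. RAB7B, a Rab GTPase of late endosomes, had 6.42, 5.43, 6.69 and 6.01 late and 6.87, 7.40 and 7.91 in middle arrays, a step of -1.22 ± 0.15 (adjusted p = 0.000126). It was above background on 3 of 4 late, all 6 middle and none of the 4 arrays at 0 h, and a late change of 0.59 ± 0.16 remained (adjusted p = 0.0226). PGF, a growth factor of the VEGF family, had a step of -0.79 ± 0.18 (adjusted p = 0.0152).

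SLC30A1 encodes the zinc exporter of the plasma membrane, which cells induce through the metal-sensing factor MTF1 together with metallothioneins. It had 8.68, 8.71, 9.04 and 8.84 late, against 9.47, 9.71 and 10.39 in middle arrays. The lowest middle array lay above the highest late array, the step was -1.04 ± 0.09 (adjusted p = 1.03e-05), and late levels were 0.13 ± 0.10 from 0 h (adjusted p = 0.441). A second probe of the gene gave -0.77. It was the 1 called member of 11 measured metallothionein and zinc genes. MT1X, a metallothionein, had 11.27, 10.51, 11.39 and 10.54 late and 11.15, 11.37 and 11.54 in middle arrays. Its step of -0.40 ± 0.15 did not pass (adjusted p = 0.127), and it was still 1.14 ± 0.16 above 0 h late (adjusted p = 0.000367), although probes of the near-identical metallothionein genes cannot be fully told apart. For MT1E, whose middle change of 0.81 ± 0.15 had been called (adjusted p = 0.00168), neither the step nor the late change passed.

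p53, the transcription factor that responds to DNA damage and other stress, had 22 measured targets. Of these, 6 fell in the step and none rose, with a median of -0.21 (the same relative to all genes under median scaling, where 3 fell), and 12 had been higher in the middle phase than at 0 h. CDKN1A, which encodes the cell cycle inhibitor p21, had 10.40, 10.26, 10.48 and 9.85 in late arrays, against 10.80, 11.16 and 11.25 in middle arrays. The groups did not overlap, and the step of -0.86 ± 0.07 (adjusted p = 9e-06) left CDKN1A at -0.08 ± 0.08 from 0 h (adjusted p = 0.543). AEN, an apoptosis nuclease, had a step of -0.65 ± 0.11 (adjusted p = 0.00207). TNFRSF10B, the death receptor for TRAIL, had 9.50, 9.71, 9.46 and 9.58 late and 9.75, 10.19 and 10.54 in middle arrays, with a step of -0.60 ± 0.06 (adjusted p = 2.56e-05), and a late change from 0 h of -0.30 ± 0.07 (adjusted p = 0.00751). PHLDA3, an inhibitor of AKT signalling, had a step of -0.54 ± 0.08 (adjusted p = 0.000983), and GADD45A and TIGAR completed the 6, all of which reverted. The list's median against 0 h was -0.01 to 0.13 on late arrays and 0.17 to 0.36 on middle arrays, without overlap.

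The ID genes, which encode inhibitors of basic helix-loop-helix factors and are direct targets of BMP and TGF-beta signalling, were listed together with the feedback inhibitors of those pathways. Of 14 measured members, 5 fell (ID2, ID3, SMAD6, ID1 and BAMBI) and none rose, with a median of -0.27 (-0.28 relative to all genes under median scaling, where 1 fell). The count was 3 without H838 15 h and 3 without HPAEC 10 h. ID2 had 11.05, 10.83, 11.12 and 11.19 late, against 11.52, 11.73 and 11.97 in middle arrays. All late arrays lay below all middle arrays, the step was -0.70 ± 0.08 (adjusted p = 3.41e-05) and a second probe gave -0.85. ID2 had not fully returned, since it was still 0.30 ± 0.08 above 0 h (adjusted p = 0.0263). ID1 and ID3 had steps of -0.36 ± 0.07 and -0.43 ± 0.08 (adjusted p = 0.00707 and 0.00598).

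Of 17 measured Notch pathway genes, 1 fell and 1 rose, against 2.49% and 3.64% of all genes. LFNG, the Fringe enzyme that adds sugar to Notch receptors, had 9.74, 9.26, 9.70 and 9.18 late, against 10.23, 10.45 and 10.52 in middle arrays. The groups were separate and the step was -0.93 ± 0.10 (adjusted p = 3.41e-05), but the 2 dimmer probes of this gene gave -0.02 and -0.23. JAG1, a Notch ligand, had 9.45, 9.43, 9.32 and 9.57 late and 9.07, 9.19 and 9.28 in middle arrays. It began late, with a step of 0.27 ± 0.06 (adjusted p = 0.0182), and the other 15 had no called step.

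Several heat shock genes began late. These chaperones, switched on by HSF1 when unfolded protein appears, fold new and damaged proteins. Of 20 measured genes, 8 rose and none fell, with a median of 0.25 (0.27 relative to all genes under median scaling, where 11 rose), and 7 of the 8 were of the course that began late. Leaving out any 1 array gave 6 to 8, and leaving out the H838 5 h and 15 h arrays together gave 7. CHORDC1, a partner of HSP90, had 9.05, 9.22, 9.20 and 9.58 in late arrays, against 8.13, 8.30 and 8.81 in middle arrays. The lowest late array lay above the highest middle array, which was H838 5 h, and the step was 0.90 ± 0.12 (adjusted p = 0.000281). HSPA1A, the stress-inducible HSP70, had 11.65, 11.63, 12.04 and 11.91 late and 10.62, 11.06 and 11.40 in middle arrays, a step of 0.78 ± 0.09 (adjusted p = 4.07e-05). Its near-identical copy HSPA1B had a step of 0.75 ± 0.08 (adjusted p = 5.26e-05), and the probes of the pair may share transcripts. HSPH1, which helps HSP70 exchange nucleotide, had 12.09, 12.15, 12.03 and 12.23 late and 11.24, 11.41 and 11.61 in middle arrays. Its middle change was 0.02 ± 0.06, its step 0.70 ± 0.06 (adjusted p = 1.03e-05), and by 24 h its mean of 11.23 was near the 0 h mean of 11.41. HSPA8, DNAJA1, HSPA4L and DNAJB6 had steps of 0.32 to 0.62.

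Promoter stretches of CHORDC1, which led the list, and of HSPA8, the constitutive HSP70, added after its values were seen, show the letters these genes share. Capitals mark the heat shock core, searched after the results were known as GAANNTTC or TTCNNGAA, each of which reads the same on both strands, and neighbouring matches overlap.
CHORDC1 (chr11:90223050-90223134, minus strand): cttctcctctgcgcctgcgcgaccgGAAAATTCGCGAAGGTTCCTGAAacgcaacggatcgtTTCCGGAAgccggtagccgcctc
HSPA8 (chr11:123062154-123062216, minus strand): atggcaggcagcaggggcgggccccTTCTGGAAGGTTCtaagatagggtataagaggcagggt
The core stood in 6 of the 8 called promoters, in 8.57% of the promoters of tested genes and in 11.7% of all promoters. Of the 19 measured heat shock genes with a promoter, called or not, 8 held it.

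Cholesterol and fatty acid synthesis gave the most calls of any list. The pathway runs from acetyl-CoA through mevalonate to sterols, and SREBP factors raise its genes together when sterol is short. Of 30 measured genes, 15 fell and none rose, and all 30 had a step below 0 after quantile normalization, with a median of -0.33. Under median scaling the median was -0.17, which is -0.31 relative to all genes, and 5 fell. Leaving out any 1 array gave 11 to 14, and leaving out the H838 5 h and 15 h arrays together gave 7. In the middle phase 1 of the 30 had been higher and 1 lower than at 0 h, and 10 of the 15 were of the course that began late.

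INSIG1, which holds SREBP in the endoplasmic reticulum and is itself an SREBP target, had 11.10, 11.56, 11.49 and 11.69 in late arrays, against 11.95, 12.27 and 12.44 in middle arrays. The highest late array was below the lowest middle array, and the step was -0.75 ± 0.07 (adjusted p = 9e-06), with -0.84 for a second probe. INSIG1 was built up, its late change from 0 h being -0.999 ± 0.07 (adjusted p = 1.02e-06). HMGCS1, the enzyme that makes HMG-CoA, had 13.17, 13.23, 13.42 and 13.23 late and 13.69, 13.97 and 14.11 in middle arrays. These did not overlap either, and the step of -0.68 ± 0.08 (adjusted p = 0.000126) followed a middle change of 0.10 ± 0.08. MVK, mevalonate kinase, and MVD, which decarboxylates its product further on, had steps of -0.67 ± 0.11 and -0.66 ± 0.11 (adjusted p = 0.0013 and 0.00161), both without overlap. The other 11, in order MSMO1, SQLE, LPIN1, NSDHL, TMEM97, FASN, DHCR7, FADS2, EBP, SC5D and ACLY, had steps of -0.56 to -0.27. By 24 h the HMGCS1 mean of 13.77 and the INSIG1 mean of 12.29 were near the 0 h means of 13.84 and 12.46.

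Promoter stretches of HMGCS1 and INSIG1 are shown with the CCAAT box, the site of NF-Y, in capitals as CCAAT or, on the other strand, ATTGG.
HMGCS1 (chr5:43313483-43313537, minus strand): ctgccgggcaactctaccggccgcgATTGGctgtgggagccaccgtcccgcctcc
INSIG1 (chr7:155297683-155297737, plus strand): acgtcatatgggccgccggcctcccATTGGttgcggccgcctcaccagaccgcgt
A CCAAT box stood within 250 bases before the start in 11 of the 13 called-lower genes that had a promoter (of 15), in 35.9% of the promoters of tested genes and in 33% of all. Of the 27 measured genes of this list with a promoter, called or not, 18 held it. The sterol response letters TCACNCCAC were in none of the 13 and in 0.875% of all promoters, which says only that this spelling was not in these windows.

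**Figure D3:**
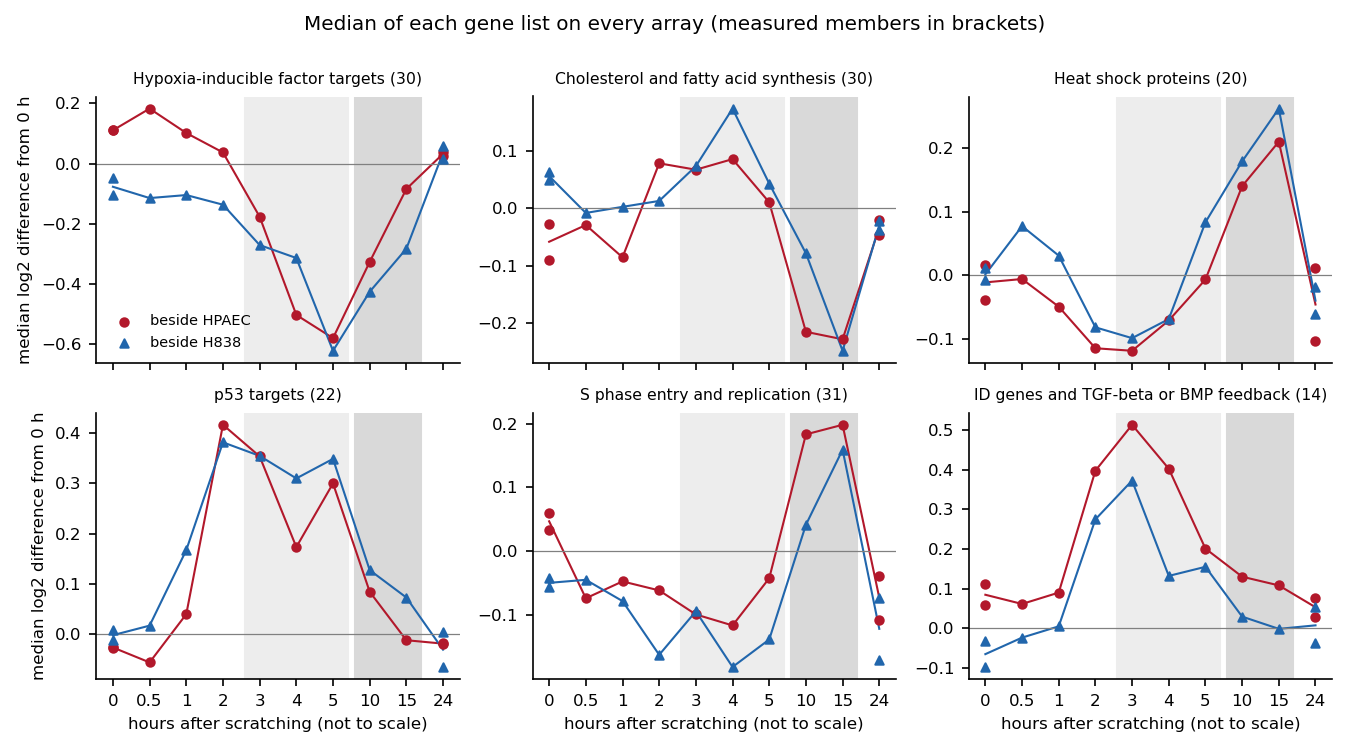
Median log2 difference from the mean of the 0 h arrays (vertical axis) of 6 gene lists on every array against hours after scratching (spaced evenly, not to scale), with red circles for cells beside HPAEC, blue triangles for cells beside H838, and the middle and late times shaded. Late arrays lie above middle arrays for heat shock and S phase genes and below them for cholesterol, p53 and ID genes, while the late and middle ranges of the hypoxia targets overlap.

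The circadian clock runs on BMAL1 and CLOCK, which switch on the PER and CRY genes, whose proteins then repress them. Of 14 measured clock and output genes, 2 rose and 3 fell in the step. Their median was -0.04 (0.13 under median scaling, which is -0.01 relative to all genes). The number of rises was 1 without any 1 of H838 3 h, H838 10 h, H838 15 h, HPAEC 3 h, HPAEC 4 h, HPAEC 5 h and HPAEC 10 h. BMAL1 had 6.82, 6.88, 6.43 and 6.75 late, against 5.07, 5.79 and 6.43 in middle arrays. The lowest late array, H838 10 h, and the highest middle array, H838 5 h, were 6.43 each to 2 decimals. BMAL1 was above background on all 4 late arrays, on 2 of 6 middle arrays and on none at 0 h or 24 h. Its step was 0.92 ± 0.12 (adjusted p = 0.000179), ran from 0.39 to 1.18 over 28 alternatives and lost its call under 4 of them. The BMAL1 means of 5.60 at 0 h and 5.64 at 24 h are background levels. PER2 had 7.72, 7.28, 7.33 and 6.85 late and 7.87, 8.18 and 8.60 in middle arrays. No late array reached the middle range, with a step of -0.92 ± 0.09 (adjusted p = 1.92e-05), although a second, dim probe gave 0.02. PER3 had 8.51, 7.90, 7.94 and 7.96 late and 8.54, 8.89 and 9.09 in middle arrays, and its HPAEC 10 h array stood apart from the other 3 late arrays. The PER3 step was -0.79 ± 0.10 (adjusted p = 0.000295). TEF, a clock-controlled factor that had a called middle change of -0.73 ± 0.10, had a further step of -0.75 ± 0.10 (adjusted p = 0.000353) and was above background on 1 late array. NFIL3, a repressor of the same sites as TEF, rose by 0.27 ± 0.07 (adjusted p = 0.0361). The 24 h means of PER2 and PER3, 8.21 and 9.05, were close to the 0 h means of 8.30 and 8.93.

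Genes of S phase entry and DNA replication rose for 12 of 31 measured members and fell for none, with a median of 0.24 (0.23 relative to all genes under median scaling, where 13 rose). The count was 4 without HPAEC 10 h, 6 without H838 15 h, 7 without HPAEC 15 h and 3 without the H838 5 h and 15 h arrays together. In the middle phase 7 of the 31 had been lower than at 0 h and 3 higher, and in the late phase 8 were higher and 1 lower. Of the 12 called members, 3 reverted a middle fall, 5 began late and 4 had a step alone. MCM2, a subunit of the replicative helicase, had 9.57, 9.56, 9.61 and 9.63 in late arrays, against 8.93, 9.13 and 9.33 in middle arrays. The late arrays were tightly grouped above all middle arrays, with a step of 0.45 ± 0.07 (adjusted p = 0.00129). This step reverted a called middle change of -0.24 ± 0.07 (adjusted p = 0.0287). The late change of MCM2 from 0 h, 0.21 ± 0.08, did not pass (adjusted p = 0.0794). MCM10, MCM6 and GINS2, whose products are part of the replicative helicase or work with it, had steps of 0.41 ± 0.09, 0.40 ± 0.06 and 0.36 ± 0.06. The other 8 called members, UHRF1, UNG, POLE2, RFC3, MCM3, MCM4, E2F2 and CHAF1B, had steps of 0.27 to 0.36, and a second MCM4 probe gave 0.10.

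The 41 genes of mitosis and the G2 to M transition had 4 falls and no rise. Their median was -0.10 (0.06 under median scaling, which is -0.08 relative to all genes, with no call). They were AURKA, PTTG1, CCNF and CDC25C, with steps of -0.36 to -0.30, and the number was 0 without H838 15 h, alone or together with H838 5 h. Counts of 1 or 2 were left without H838 10 h, H838 3 h, H838 4 h, HPAEC 10 h, HPAEC 3 h, H838 5 h or HPAEC 5 h. Of the 41, 23 were already lower than at 0 h in the middle phase, 29 were in the late phase and 22 persisted. CDKN1C, which encodes the inhibitor p57, had a late change of -0.84 ± 0.12 (adjusted p = 0.000317), also persisted.

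Among single genes outside these programs, PMS1, a mismatch repair protein, had 6.78, 6.98, 7.10 and 7.67 late, against 5.64, 6.24 and 6.55 in middle arrays. The groups were apart, with a step of 0.93 ± 0.10 (adjusted p = 2.54e-05). CCNG2, an unconventional cyclin linked to cell cycle arrest, had 7.33, 8.02, 7.61 and 8.14 late and 6.75, 6.86 and 7.25 in middle arrays, a step of 0.87 ± 0.11 (adjusted p = 0.000138). SIRT4, a mitochondrial sirtuin, had 7.44, 7.81, 7.14 and 7.74 late and 6.64, 6.78 and 6.97 in middle arrays, a step of 0.75 ± 0.08 (adjusted p = 2.54e-05). These 3 and NOC3L, a nucleolar protein with a step of 0.74 ± 0.10, all reversed a middle fall. NLK, a kinase of the MAPK family, had a step of 0.81 ± 0.20 (adjusted p = 0.0261) that lost its call under 12 of 28 alternatives, among them the fits without any 1 of the 5 H838 arrays or without HPAEC 10 h.

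**Figure D4:**
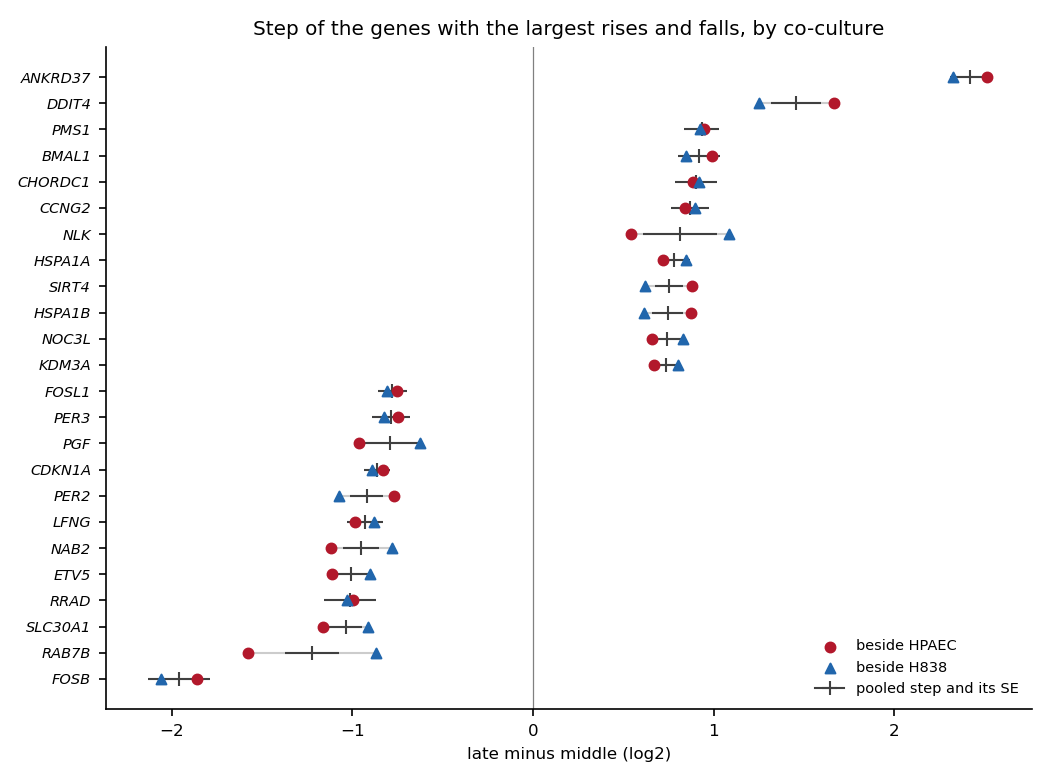
Step (late minus middle, log2, horizontal axis) of the 12 largest rises and 12 largest falls named by rule, with circles for cells beside HPAEC, triangles for cells beside H838 and a black bar for the pooled step with its SE. Both co-cultures lie on the same side of 0 for every gene, which the naming rule required.

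Persisted genes differed from 0 h in both phases with no called step, which does not show that their level was constant. EGR1, an immediate early zinc finger factor, had 7.46, 7.86, 7.36 and 7.85 in late arrays, 7.32, 7.91 and 8.45 in middle arrays and a 0 h mean of 9.01. Late and middle arrays overlapped (step -0.25 ± 0.09, adjusted p = 0.0983), and both were below 0 h, with a late change of -1.37 ± 0.09 (adjusted p = 1.02e-06). MAT2A, which makes the methyl donor S-adenosylmethionine, had 12.64, 11.12, 12.46 and 11.41 late, 11.76, 12.19 and 12.35 in middle arrays and a 0 h mean of 10.84. Its pooled late change was 1.07 ± 0.10 (adjusted p = 1.52e-05), but its 10 h arrays were far above its 15 h arrays. LINC00472, a long non-coding RNA, EPM2AIP1, a partner of the glycogen phosphatase laforin, and ZCCHC12, a zinc finger coactivator, had late changes of 1.27 ± 0.17, 1.01 ± 0.13 and 0.93 ± 0.09, with steps of -0.24 ± 0.16, -0.002 ± 0.11 and 0.04 ± 0.09. On the lower side, MXD3, a MYC network repressor, had a middle change of -0.85 ± 0.09 and a step of -0.15 ± 0.09, and ABTB1 a late change of -0.95 ± 0.14. Of 29 measured ribosome biogenesis genes, 13 had been higher in the middle phase and 12 were in the late phase. In the step 2 of them rose (UTP20 and DDX10) and 2 fell (RRS1 and NOP56), and 8 persisted, while the 32 cytosolic ribosomal proteins had no call in any of the 3 comparisons.

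SR splicing factors and the CLK kinases that phosphorylate them were higher than at 0 h for 8 of 25 members in the middle phase and for 12 in the late phase. In the step 4 rose and 2 fell, with 7 rises and no fall under median scaling and 2 rises without H838 15 h or without HPAEC 15 h. SRSF1 began late, with 11.95, 12.26, 11.88 and 12.23 in late arrays, against 11.25, 11.54 and 11.84 in middle arrays. The ranges were apart and the step was 0.53 ± 0.08 (adjusted p = 0.0008). CLK1, a kinase of these factors, was built up, with a step of 0.46 ± 0.10 (adjusted p = 0.0132) and a late change of 0.81 ± 0.11. SRSF5 reverted, with 11.71, 11.20, 12.06 and 11.23 late, 11.90, 12.05 and 12.32 in middle arrays and a step of -0.50 ± 0.07 (adjusted p = 0.000431). Its H838 10 h array lay within the middle range and the other 3 late arrays below it. SRSF11 and SRSF2 rose and SRSF6 fell, and the SRSF6 step turned to 0.05 when 10 h alone was set against the middle arrays.

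Of the 36 genes built up, 13 rose and 23 fell further. CRYBA1, a crystallin, had 8.35, 8.68, 9.003 and 9.17 late, 7.81, 8.16 and 8.76 in middle arrays and a 0 h mean of 7.86. HPAEC and H838 arrays differed in level and the phases overlapped, and the step was 0.57 ± 0.09 (adjusted p = 0.00129). LRRN2, CCDC117 and CYP4V2, a fatty acid hydroxylase, had steps of 0.51 ± 0.08, 0.36 ± 0.07 and 0.36 ± 0.08 after middle changes of 0.28 ± 0.08, 0.39 ± 0.07 and 0.58 ± 0.08. CDH15, a cadherin of muscle, had 6.43, 6.72, 6.65 and 6.53 late and 6.97, 7.21 and 7.30 in middle arrays, and CCNB3, a B-type cyclin, and CABYR had smaller steps of -0.46 ± 0.10 and -0.42 ± 0.08. At 24 h the genes built up upwards had a median of 0.44 and those built up downwards of -0.37 from 0 h, with no test. Reverted genes had medians of -0.07 (higher in the middle phase) and 0.04 (lower in the middle phase) at 24 h.

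Amino acid and endoplasmic reticulum stress genes, which ATF4 and the unfolded protein response control, fell for 4 of 38 members and rose for none. Their median was -0.12 (0.04 under median scaling, which is -0.10 relative to all genes, with no call). ASNS, asparagine synthetase, had 12.62, 12.23, 12.11 and 11.94 late and 12.23, 12.59 and 13.14 in middle arrays. The ranges overlapped, and the step was -0.38 ± 0.07 (adjusted p = 0.00363). PCK2, ATF4 and HSPA5 had steps of -0.32 to -0.27, and the count was 2 without H838 3 h, H838 4 h, H838 5 h, H838 15 h or HPAEC 10 h. Among others that began late, NAPEPLD, a lipid enzyme, had a step of 0.71 ± 0.14 and CNNM2 and CXCR1 steps of -0.72 ± 0.11 and -0.68 ± 0.14, both above background on 1 late array.

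**Figure D5:**
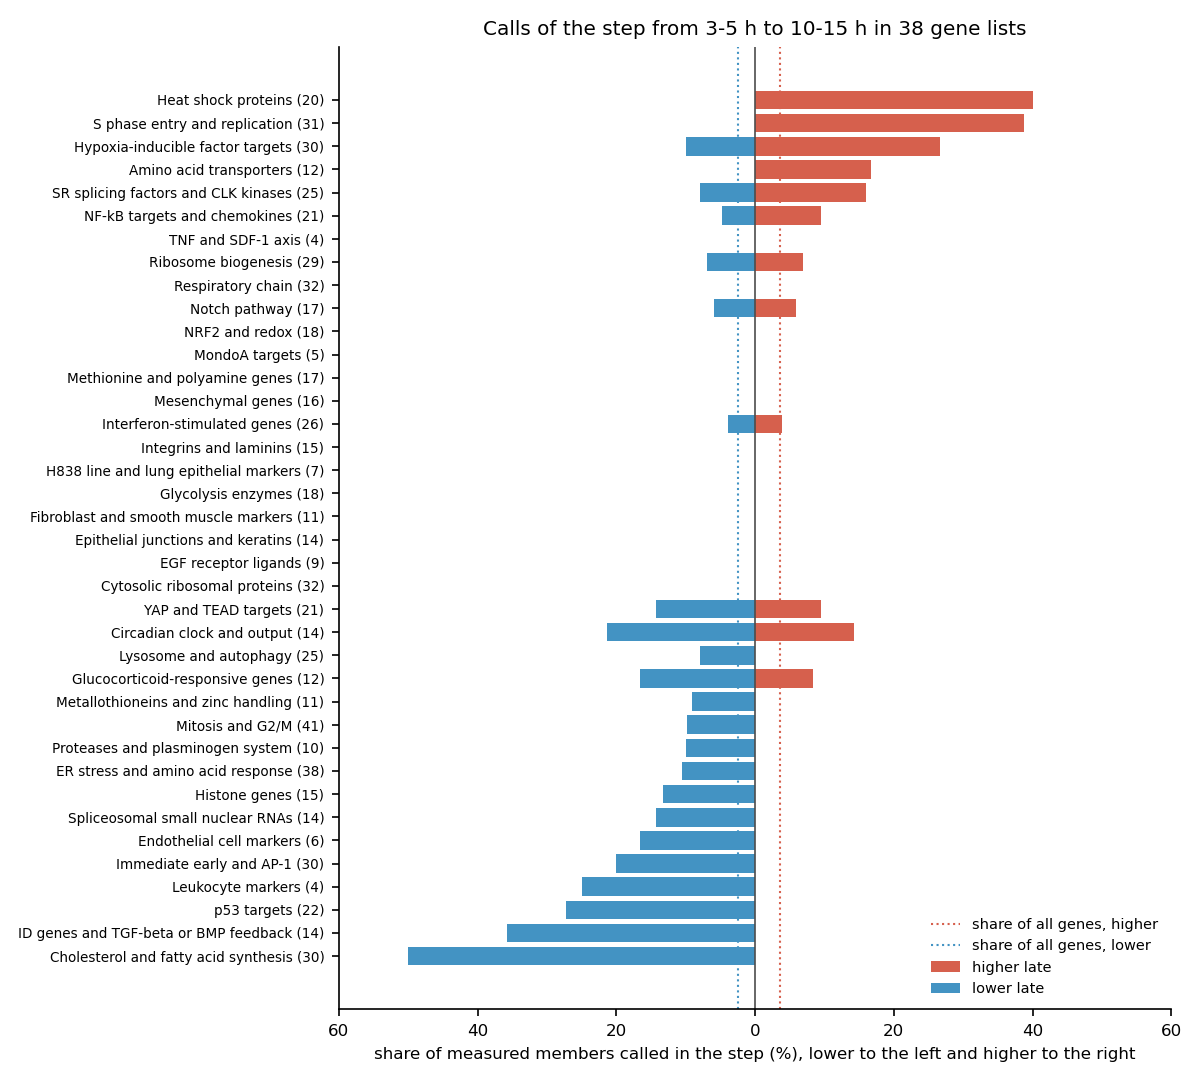
Share of measured members (number in brackets) of each of 38 gene lists called higher (red, to the right) or lower (blue, to the left) in the step, with dotted lines at the shares of all genes (3.64% and 2.49%). Heat shock and S phase genes reach furthest to the right and cholesterol genes furthest to the left, and 13 lists have no call.

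Several lists tied to migration had no call, in a step called higher for 3.64% and lower for 2.49% of all genes. At those shares few calls would be made in lists of this size, so the lack of calls says little. Of 15 integrin and laminin genes, 14 junction and keratin genes, 16 mesenchymal genes, 9 EGF receptor ligands and 4 genes of the TNF and SDF-1 axis, none was called in the step. The medians of these lists were -0.08, 0.02, 0.01, 0.03 and -0.08, and 0.09, 0.14, 0.17, 0.11 and 0.06 under median scaling, which moved all genes by 0.14. The protease list had 1 fall of 10, PLAUR, the urokinase receptor, at -0.37 ± 0.07. YAP and TEAD targets had 2 rises and 3 falls of 21, above the shares over all genes, with WWC1 at 0.54 ± 0.12 and NUAK2 at -0.43 ± 0.08. Without the H838 5 h and 15 h arrays together, that list had 0 rises and 0 falls. NF-kB targets had 2 rises, CD83 and NFKB1, and 1 fall, SOD2, of 21. Interferon-stimulated genes had IRF9 higher and ISG20 lower of 26, and amino acid transporters had SLC7A6 and SLC43A2 higher of 12. Lysosome genes had NPC1 and ULK1 lower of 25, histone genes H3-3B and H2AC6 lower of 15, and spliceosomal small nuclear RNAs RNVU1-18 and RNU1-3 lower of 14, whose near-identical copies may share probes. Glucocorticoid-responsive genes had DDIT4 higher and ANGPTL4 and CEBPD lower of 12. No call was made among 32 respiratory chain, 18 NRF2, 17 methionine and polyamine and 5 MondoA genes. Among markers of other cells, SOX18 of 6 endothelial genes and CD68 of 4 leukocyte genes fell, by 0.42 and 0.32 on the log2 scale, and none of 11 fibroblast and 7 lung epithelial genes was called.

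Of the 176 genes with a step alone, 133 rose and 43 fell. WNT10B, a secreted WNT ligand, was above background on all 4 late and none of the 6 middle arrays and was at least 1.18-fold higher late, with a fitted step of 0.65 ± 0.15 (adjusted p = 0.016). The WNT10B step was 0.21 beside HPAEC and 1.09 beside H838. SLC30A8, a zinc transporter, SNX10, a sorting nexin, and FMNL2, a formin that builds actin filaments, had steps of 0.70 ± 0.15, 0.65 ± 0.17 and 0.60 ± 0.12. RTL10, the small nucleolar RNA SNORA64 and the phosphatase PGP had steps of -0.56 ± 0.12, -0.51 ± 0.13 and -0.49 ± 0.11. Of the 723 genes whose course was not resolved, FBXO16, an F-box protein, was above background on all late arrays and no middle array, at least 1.21-fold higher late, with a step of 0.52 ± 0.18 that did not pass (adjusted p = 0.0899). PDZD8, SSH1 and APLN, with middle rises of 0.59 ± 0.16, 1.10 ± 0.22 and 0.52 ± 0.16, likewise had no called step.

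Within the late phase, 12 genes (0.104%) differed between 15 h and 10 h, 6 in each direction. MAT2A was at 11.12 and 11.41 at 15 h (HPAEC and H838), against 12.64 and 12.46 at 10 h. The difference was -1.29 ± 0.14 (adjusted p = 0.000687) and both co-cultures fell. SRSF6 and ZNF572 were also lower at 15 h, with differences of -0.82 ± 0.09 and -0.70 ± 0.13 (adjusted p = 0.000687 and 0.0399). ZNF572 lay near background and was above it on only 2 of the 4 late arrays. SLC2A1, the glucose transporter GLUT1, was at 10.26 and 9.91 at 15 h, against 9.11 and 8.90 at 10 h, a difference of 1.08 ± 0.17 (adjusted p = 0.0171). PFKFB4 and KHDC4, a splicing-associated RNA-binding protein, rose by 1.02 ± 0.14 and 0.90 ± 0.13 (adjusted p = 0.00754 and 0.00793). Under median scaling 2 genes were called, SLC2A1 and PFKFB4, while MAT2A, SRSF6, ZNF572 and KHDC4 kept their direction but lost the call. Against the middle arrays, 10 h alone gave 99 genes and 15 h alone 693, each with 2 arrays. Against 5 h alone the late arrays differed in 77 genes, and against 3 and 4 h together in 694.

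No difference of the step between the co-culture partners passed. In a fit with a mean for each phase and co-culture, 21 genes had a step beside HPAEC and 18 beside H838, and the difference between the partners was called for 0 of 11494 genes (0%) in limma, with 359 at an unadjusted p under 0.05. The median SE of that difference was 0.195, against 0.0913 for the pooled step, so a p that misses the threshold does not show that the partners acted alike. The 3 smallest p-values belonged to DLG1, PMS2P2 and ABCA11P. DLG1, a scaffold protein at cell junctions, had a step of -0.58 beside HPAEC and 0.62 beside H838, and the adjusted p of the difference was 0.9997. It was above background on 2 of 4 late and 3 of 6 middle arrays. With the 5 arrays of a co-culture fitted alone, 2 genes were called beside HPAEC and 1 beside H838.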

How the data were processed

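RNA of H838 cells was amplified and hybridised to Illumina HT-12 BeadChips, 24 arrays on 2 chips, per the labels' protocols. The deposited table gives, per the file headers, a non-normalized intensity and a detection p-value for each probe and array. A second deposited table holds intensity values normalized by the authors on a linear scale by a method not given in the sources used here, with array medians of 116.5 to 116.6, and it served as an alternative. Both kinds of intensity were analysed on the log2 scale, computed here from the deposited values.

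With R 4.3.3 and limma 3.58.1, background was corrected from the detection p-values (nec, offset 16) and arrays were quantile-normalized. Of 47286 probes, 30080 carried 1 gene symbol in the platform annotation, 8 several and 17198 none, and 30041 were found in the RefSeq gene table, which changed 0 symbols. The filter, a detection p under 0.01 on 2 or more arrays, left 20054 probes (15292 named), and the brightest probe stood for each of 11494 genes. A linear model with time, co-culture and BeadChip over all 24 arrays (12 residual degrees of freedom) gave the step as the mean of 10 and 15 h minus the mean of 3, 4 and 5 h, and the middle and late changes against 0 h. A model of phase by co-culture with BeadChip (13 residual degrees of freedom) gave the step of each co-culture and their difference. Moderated p-values were adjusted over all genes by Benjamini-Hochberg, with 0.05 as threshold. Precision is limited by the number of arrays. For a gene above background on no array of a phase, the fold is a bound against the lowest signal above background.

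Named genes were the 12 largest rises and 12 largest falls of the step that both co-cultures shared in sign and that were above background on every array of the higher phase, the 5 largest of each course and direction (persisted genes by the late change), up to 4 called members of each list, and, for 15 h minus 10 h and for the co-culture difference, 3 genes per direction by size or, with no call, 3 genes by smallest p. Other called members of a list were named after their values were seen. The members and lists were chosen with earlier results of these data known, and the lists support nothing by themselves. Promoters were the 250 bases before each start in RefSeq (GRCh38.p14), present for 9295 tested genes, and the bases after the start, which can be untranslated sequence, were not searched although the plan had included them. On simulated data with 50 changed genes per size in a fit of 11494 genes, the step recovered 36% of log2 changes of 0.3, 82% of 0.5, 94% of 0.8 and 100% of 1.2, with 6 false calls among 162. The simulated noise was independent and had the residual spread of the same model. Differences between times of 1 phase were not part of that noise, so these rates need not hold for the real arrays. Alternatives covered normalization, offset, filter, probe choice, model terms, array weights, an intensity trend with a robust fit and left-out arrays or times.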

Additional observations from a re-analysis of the deposited data

Results flagged for a closer look

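For 24 genes and 8 lists, the late and the middle arrays were searched for 1 array far from the others of its phase, with Dixon's criterion at 95%. Of 64 such sets 3 stood out, where chance marks about 1 in 20. CCNG2 was 7.25 on the H838 5 h array, while the other middle arrays were at 6.75 to 6.89, so that array lay nearer to the late arrays. PER3 was 8.51 on the HPAEC 10 h array and 7.90 to 7.96 on the other late arrays. The median of the p53 targets against 0 h was 0.17 on the HPAEC 4 h array and 0.30 to 0.36 on the other middle arrays. Outside the named genes, 34 of 4762 kept probes without a single gene name changed in the step (0.714%, 13 higher and 21 lower), with a largest rise of 0.99 and a largest fall of -0.85 on the log2 scale. No cause of these 4 results was tested.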

How the results depend on the processing

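The step was called for 704 genes, for 77 against 5 h alone, 99 with 10 h alone, 200 over the 10 arrays alone, 468 with 5 phases over 24 arrays and 227 without the H838 5 h and 15 h arrays, an alternative chosen after seeing the data. The 5 HPAEC arrays alone gave 2 and the 5 H838 arrays alone gave 1. These 7 settings use fewer arrays or count differences between times as spread. Median scaling gave 585 genes for the middle change, 629 for the late change, 129 reverted, 172 persisted and 2 for 15 h minus 10 h; the cause was not tested. Leaving out 1 array gave 255 to 590 for the step, 971 to 1598 for the middle change, 880 to 1463 for the late change, 119 to 239 reverted, 375 to 722 persisted and 75 to 227 that began late. For single named genes, 2393 values under alternatives kept direction and call, 780 lost the call and 1 turned, the SRSF6 step, which was 0.0547 with 10 h alone. No paired analysis was possible because each late and middle time has 1 array per co-culture and no replicate numbers are shared between them. Genes near background, such as ANKRD37 in the middle phase and FOSB in the late phase, have levels that the signal over background limits.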
